A study of Mus musculus with 2 samples.

Results

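The genes described here encode the nuclear subunits of oxidative phosphorylation. They were taken by symbol from the protein-coding genes of mouse: symbols starting with Nduf, Uqcr or Atp5, symbols starting with Cox followed by 4, 5, 6, 7 or 8, and Sdha to Sdhd, Cyc1 and Cycs. The rule found 98 genes among 21536 protein-coding genes with a known strand on mm10. By symbol, 41 belong to complex I, 8 are complex I assembly factors (Ndufaf genes), 4 belong to complex II, 9 to complex III, 18 to complex IV and 17 to complex V, and 1 encodes cytochrome c. The rule uses symbols and no measured value, but it was set with earlier results of these data known.

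MEF2A, a MADS-box transcription factor, was mapped by ChIP-seq in CH12.LX, an immortalized mouse B-cell lymphoma line from a female animal of strain B10.H-2aH-4bp/Wts. There is 1 group with 2 biological replicates from separate biosamples, no treatment and no second cell type, so every value below is a level and none is a difference between conditions. CH12.LX is a single tumour line, and whether its binding pattern resembles that of normal B cells was not tested. The values are peaks: intervals called as enriched over background, each with a summit and a signal value set by the authors. On mm10 there were 31497 peaks in the optimal IDR set (peaks whose rank is reproducible between replicates or pseudoreplicates) and 28217 in the conservative set, and an older list on mm9 held 16839. Signal has no unit shared between lists, so peaks are ranked within each list, with rank 1 the strongest. Read totals were not used here, and the depth behind each peak is unknown.

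Oxidative phosphorylation takes place in the inner mitochondrial membrane. Complex I and complex II pass electrons from NADH and from succinate to ubiquinone, complex III passes them to cytochrome c, and complex IV passes them to oxygen. Complexes I, III and IV pump protons, and complex V, the ATP synthase, uses their return to make ATP. Apart from complex II, each complex also has subunits encoded by mitochondrial DNA, which the symbols used here do not include. The nuclear genes mostly have CpG-rich promoters, at which sites of the ETS family (including GABP), NRF1 and YY1 are well known. MEF2 factors are best known for an A/T-rich site at muscle, neural and lymphoid genes, and Mef2 genes are active in B cells.

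The mm9 genome gave the sequence under 7 promoter peaks whose 101-base windows (50 bases to each side of the summit) hold an exact ETS, NRF1 or YY1 match. They are shown because these are the matches of the regulators named above at the peaks of the family. Each is read on the strand of the gene, with the matches in capitals: CCGGAAG for ETS, GCGCATGC for NRF1 and AAGATGGC for YY1, on either strand. Windows of up to 30 bases are given where the match lies in or beside an annotated exon.
Ndufaf1 (chr2:119488564-119488608, minus strand, peak rank 4401): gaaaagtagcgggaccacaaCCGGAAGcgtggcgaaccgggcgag
Atp5j (chr16:84835264-84835293, minus strand, rank 5238): agctgagggacCCGGAAGcacttaccctcc
Ndufb7 (chr8:86090625-86090654, plus strand, rank 9533): agcctagatgacCCGGAAGacactgaaggg
Ndufs3 (chr2:90744859-90744888, minus strand, rank 10568): gcacatttccaCTTCCGGtccgtgcccttg
Ndufa13 (chr8:72427212-72427241, minus strand, rank 10976): atGCGCATGCGCtctccagcaatcagtttg
Ndufb9 (chr15:58765319-58765364, plus strand, rank 14316): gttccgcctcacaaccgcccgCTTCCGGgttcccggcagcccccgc
Ndufaf8 (chr11:119960238-119960267, plus strand, rank 15558): ctCCGGAAGaggcagggcccAAGATGGCgg
The ETS letters lie in the gene's own direction at Ndufaf1, Atp5j, Ndufb7 and Ndufaf8 and in the opposite direction at Ndufs3 and Ndufb9. The Ndufa13 run holds 2 overlapping NRF1 matches, and Ndufaf8 is the member with both an ETS and a YY1 match. Ndufs3 has a further ETS match near the summit that is not printed and that overlaps an SP/KLF match. The annotation places the summit in an exon of Ndufaf1, in a UTR of Ndufb7, Ndufs3, Ndufb9 and Ndufaf8 (named 1810043H04Rik on mm9), and in a UTR of the neighbours Gabpa and Tssk6 for Atp5j and Ndufa13.

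Most of the family had a MEF2A summit at its promoter in the optimal set on mm10. Of the 98 genes, 56 (57.1%, 95% Wilson interval 47.3 to 66.5) had an optimal summit within 1 kb of the transcription start site (TSS), and 67 (68.4%, interval 58.6 to 76.7) had one within 10 kb. The same was true of 28.4% of all protein-coding genes within 1 kb and of 42.6% within 10 kb. On the mm9 list, 30 of the 95 members found in that annotation (31.6%, interval 23.1 to 41.5) had a summit within 1 kb and 38 (40%, interval 30.7 to 50.1) within 10 kb, against 16.5% and 28.3% of all genes. These intervals cover counting error over genes only and carry no test.

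The share differed in value from complex to complex. Within 1 kb on mm10, complex I had 26 of 41 genes (63.4%, interval 48.1 to 76.4), its assembly factors 7 of 8, complex II 2 of 4, complex III 7 of 9 and complex V 8 of 17 (47.1%, interval 26.2 to 69.0), and the cytochrome c gene also had a peak. Complex IV had 5 of 18 (27.8%, interval 12.5 to 50.9), a share beside that of all genes. These 18 include all of the tissue-restricted isoforms listed below except Ndufa4l2. On mm9 the counts within 1 kb were 12 of 38 for complex I, 3 of 8 for its assembly factors, 0 of 4 for complex II (which allows a share of up to 75%, 3 counts), 5 of 9 for complex III, 0 of 1 for cytochrome c, 3 of 18 for complex IV and 7 of 17 for complex V. In the conservative set they were 21 of 41, 6 of 8, 1 of 4, 6 of 9, 1 of 1, 3 of 18 and 10 of 17 in the same order, so complex V was higher there than in the optimal set. Of all genes, 25.8% had a conservative summit within 1 kb. Complex III had a higher share than complex IV in all 3 lists. The intervals of the smaller complexes are wide and overlap, and the differences between complexes were not tested.

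**Figure D1:**
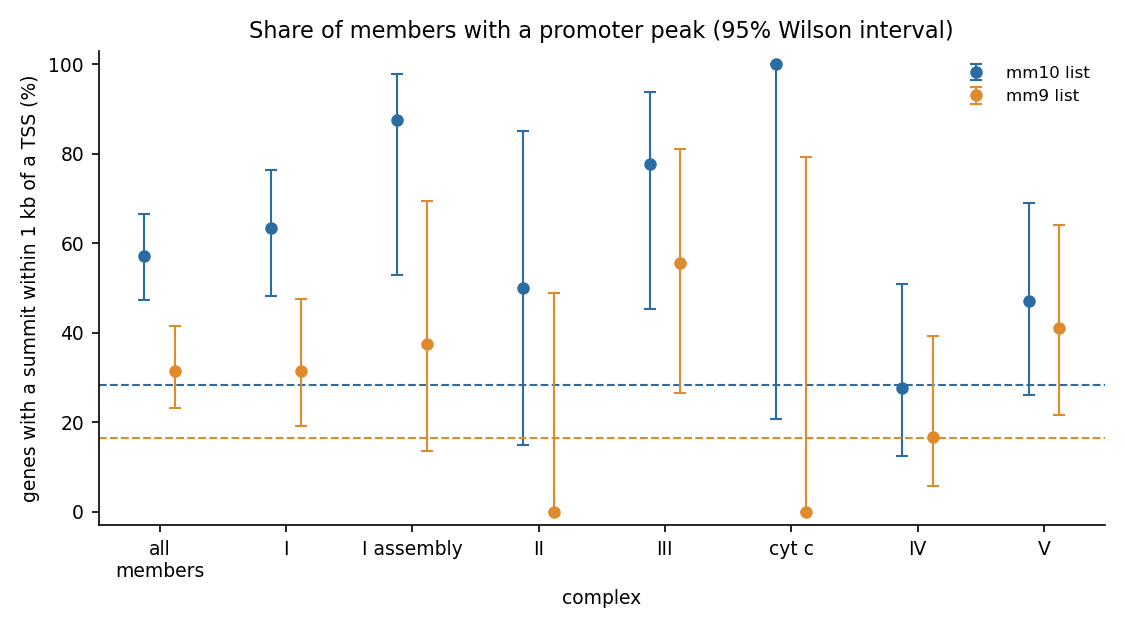
Share of genes (%) with a summit within 1 kb of a TSS, for all 98 members and for each complex, on mm10 (blue) and mm9 (orange); points are shares, bars are 95% Wilson intervals, and dashed lines are the shares of all protein-coding genes (28.4% and 16.5%). All members together lie above both lines, at 57.1% and 31.6%, and complex IV lies beside them.

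The promoter peaks were of middling height within the list. The strongest promoter peak of each of the 56 genes had a median signal of 36.0 (range 12.3 to 80.9) and ranks from 3818 to 29944 of 31497. Over the 6108 protein-coding genes with a promoter peak the median was 34.9 (range 6.51 to 414). In the stronger 50% of the list were 30 of the 56 (53.6%), against 49.98% of all such genes. None of the 56 was in the top 10% of the list, which allows a share of up to 5.36% (3 counts), and 3.59% of all such genes were there. By complex the median signal of these peaks was 48.5 in complex V, 46.0 for the single cytochrome c gene, 38.4 in the assembly factors, 35.0 in complex I, 31.2 in complex III, 26.0 in complex II and 25.2 in complex IV.

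**Figure D2:**
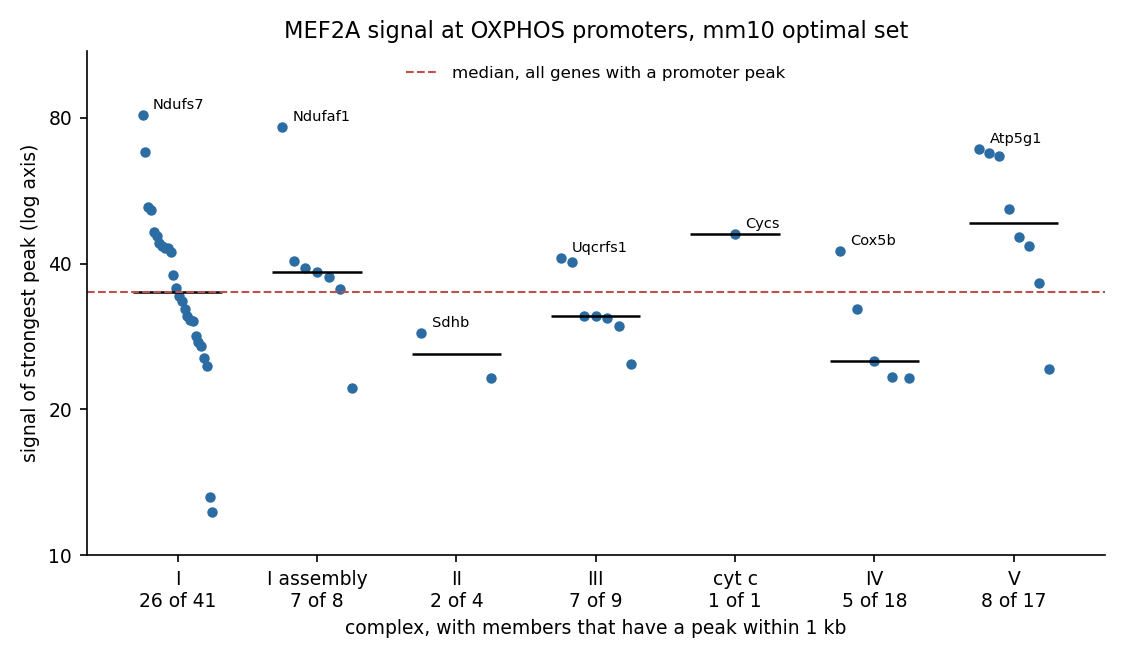
Signal (authors' own value per peak, log axis) of the strongest optimal peak within 1 kb of the TSS, 1 point per gene, by complex; black lines are medians and the dashed line is the median of all genes with a promoter peak (34.9). Ndufs7 is highest at 80.9, complex V has the highest median among complexes with more than 1 gene (48.5) and complex IV the lowest (25.2).

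The summits sat close to the start sites. Of the 56 strongest promoter peaks, 25 (44.6%) had their summit within 50 bp of the TSS, 38 (67.9%) within 100 bp and 48 (85.7%) within 200 bp. Over all genes with a promoter peak these shares were 26.6%, 44.8% and 64.4%. The median distance was 65.5 bp for the members and 119 bp for all genes. The summit lay upstream of the TSS in 35 members and downstream in 21.

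**Figure D3:**
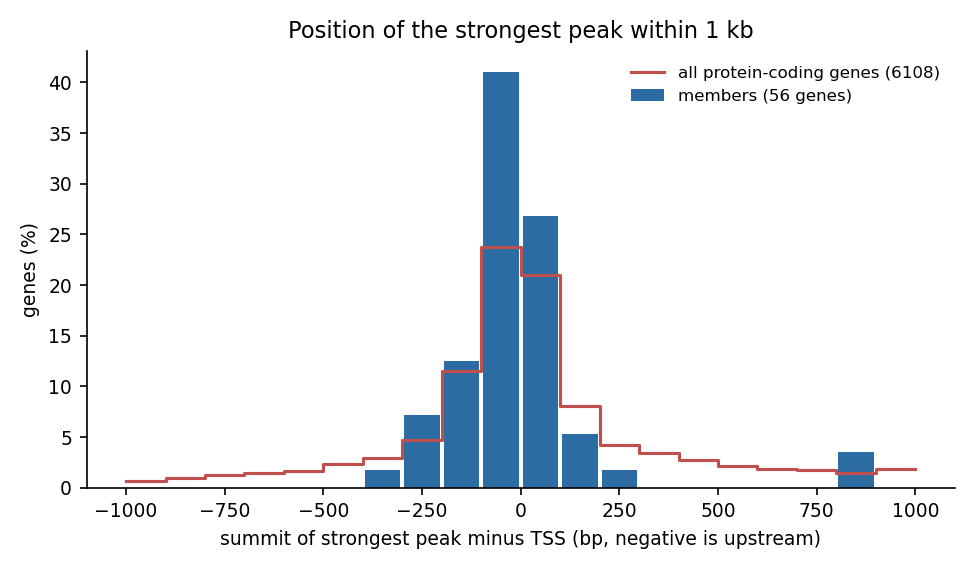
Position of the strongest optimal summit within 1 kb of the TSS (bp, negative is upstream), in bins of 100 bp, as a percentage of genes; bars are the 56 members and the red line is all 6108 genes with a promoter peak. The bin just upstream of the TSS holds 41.1% of the members and 23.8% of all genes.

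Many of these promoters are shared with a neighbour. Another protein-coding TSS lay within 1 kb of the strongest summit in 23 of the 56 members (41.1%), against 23.4% of all genes with a promoter peak. In 11 members another TSS was the nearer one, so their peak cannot be given to the member alone. These are Atp5j (nearer Gabpa), Atp5h (Kctd2), Ndufa13 (Tssk6), Ndufs3 (Kbtbd4), Ndufaf3 (Dalrd3), Ndufaf2 (Ercc8), Uqcrh (Lrrc41), Ndufa7 (Rps28), Ndufaf7 (Cebpz), Ndufa4 (Phf14) and Ndufa1 (Rnf113a1). Counting each peak only for its nearest gene left 49 of 98 members (50%) with a promoter peak, against 25.6% of all genes. None of the 69 promoter peaks of the family was shared between members: 44 members had 1, 11 had 2, and Atp5j had 3. Some peaks of the same member overlap, as at Ndufa1, Ndufv1 and Atp5o, so 2 peaks need not be 2 separate regions.

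Complex I takes electrons from NADH. The core subunits that carry its flavin and iron-sulfur clusters and its quinone site had a promoter peak in 6 of 7 cases, and the accessory subunits in 20 of 34. Ndufs7, an iron-sulfur subunit next to the quinone site, had the strongest promoter peak of the family, at chr10:80249178-80249537 (mm10), with a signal of 80.9 and rank 3818; its summit lay 253 bp downstream of the TSS. The interval over it ranked 2309 in replicate 1 and 5923 in replicate 2, so both replicates placed it high in lists of 300000 intervals. Ndufv1, which binds FMN and NADH, followed at chr19:4012596-4012955 with a signal of 67.8 and rank 5258, and its summit was 21 bp upstream of the TSS. It ranked 2424 in replicate 1 and 9761 in replicate 2. Among accessory subunits Ndufa6 (signal 52.4) ranked 8172 in the optimal list, with ranks of 24234 and 6340 in replicates 1 and 2. Ndufc2 (signal 51.7) ranked 8374, with 11284 and 8199 in the replicates, and Ndufb10 (signal 46.4) ranked 10037, with 12122 and 10703. These last pairs of ranks lie close together, while Ndufa6 stood higher in replicate 2. Ndufb7 (signal 45.6, rank 10345), whose ETS match is printed above, also stood higher in replicate 2, at rank 8275 against 34131.

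Some promoter peaks of complex I had no replicate 1 interval over the summit or were weak. Ndufs1 (signal 31.1) and Ndufs8 (37.9) had promoter peaks whose summit no interval in replicate 1 covered, and ranked 9235 and 10947 in replicate 2. The Ndufs1 peak was in the conservative set all the same, and the Ndufs8 peak was not. Taking only the strongest promoter peak of each gene, the weakest were at Ndufa4 (signal 13.2, rank 29713) and Ndufa1 (signal 12.3, rank 29944), both nearer to a neighbour's TSS. Some further promoter peaks of members were weaker, as at Ndufa1 (signal 8.08, rank 31000), 75 bp upstream of its own TSS. Ndufa4 is placed here by its symbol; its protein has since been found in complex IV. Ndufs1, Ndufs8, Ndufa1 and Ndufa4 were singled out after their values were seen.

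Away from promoters, the strongest complex I peaks 1 to 10 kb from a TSS were at Ndufa4l2 (signal 70.9, rank 4861, 3746 bp away), Ndufa5 (63.4, rank 5909, 1801 bp) and Ndufb9 (60.5, rank 6414, 5667 bp). In each case the member was the nearest gene. The replicate ranks at the Ndufb9 peak were 6753 and 6339 and at the Ndufa5 peak 6487 and 6905, so both replicates placed these peaks alike. Ndufa5 also had a promoter peak (signal 43.2), and Ndufb9 and Ndufa4l2 had none in the optimal set.

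Of the complex I assembly factors, which help build the complex and are not part of it, all but Ndufaf4 had a promoter peak. Ndufaf1 led them at chr2:119662673-119663032 with a signal of 76.4 and rank 4229, with its summit 14 bp upstream of the TSS. Its replicate ranks were 3570 and 5403. It also had the strongest mm9 summit within 1 kb of any member, at rank 4401, and its ETS match opens the list of sequences above. The other assembly factors were lower: Ndufaf3 had a signal of 40.6, Ndufaf5 39.2, Ndufaf6 38.4, Ndufaf8 37.5 and Ndufaf2 35.4. Replicate 1 placed Ndufaf8 at rank 36031 and replicate 2 at 8846, while Ndufaf2 ranked 18295 and 18329. The highest peak near any member lay at Ndufaf3, 1220 bp upstream of its TSS and nearest Dalrd3, with a signal of 112.6, rank 2069 and replicate ranks of 2130 and 1998. Distal peaks of Ndufaf6 (signal 28.1) and Ndufaf8 (21.3) were weak.

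Complex II, succinate dehydrogenase, gave weak signals or none. Sdhb, the iron-sulfur subunit, had a promoter peak of signal 28.8 and rank 20609, with replicate ranks of 15753 and 31884. Sdhd, a membrane anchor, had one of signal 23.2 and rank 25707, with replicate ranks of 58402 and 24707 and Timm8b as a second gene within 1 kb. Sdha, the flavoprotein, and Sdhc, the other anchor, had no optimal peak within 10 kb, and none of the 4 genes had an mm9 peak within 10 kb. In the relaxed pooled list, which also holds background intervals, the best promoter interval of Sdhc ranked 46608 and that of Sdha 163846 of 300000.

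Complex III, the cytochrome bc1 complex, had promoter peaks at all genes but Uqcrc1 and Uqcr11. Uqcrfs1, the Rieske iron-sulfur protein, had a signal of 41.0 and rank 12281, with its summit 184 bp upstream and replicate ranks of 12990 and 15542. Uqcrc2, a core protein, had a signal of 40.3 and rank 12600, but ranked 248220 in replicate 1 and 8596 in replicate 2. Uqcrh, the hinge protein, went the other way, at 7045 in replicate 1 and 127547 in replicate 2, with a signal of 31.2. Neither of these peaks was in the conservative set. Uqcrq (signal 31.2), Uqcr10 (30.9), Cyc1 (29.8), which encodes cytochrome c1, and Uqcrb (24.8) were lower. Of these, Cyc1 ranked 14767 and 29685 in the replicates, Uqcrq 16819 and 27037, Uqcr10 34007 and 20732, and Uqcrb 11992 and 65704.

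Uqcrc1, the other core protein, shows how the sets differ. It had no peak in the optimal set, yet it was in the conservative set and on mm9 at rank 11786, and its interval in the pooled relaxed list ranked 10411. Replicate 1 ranked it 4234 and replicate 2 24003. Uqcr11 had a peak of signal 28.3 at 6942 bp, nearest Mbd3. The second highest peak near any member, with a signal of 111 and rank 2122, lay 8680 bp upstream of Uqcr10 and nearest Zmat5.

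Cycs, which encodes the cytochrome c found outside testis, had a promoter peak at chr6:50566510-50566869 with a signal of 46.0 and rank 10196, 121 bp upstream of the TSS. It ranked 28711 in replicate 1 and 10172 in replicate 2. A slightly stronger peak (signal 48.5, rank 9293) lay 5586 bp downstream of the TSS, with replicate ranks of 11065 and 10175. The mm9 list had the downstream peak (rank 15826, 5555 bp from the TSS) and no promoter peak.

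Complex IV, cytochrome c oxidase, had the lowest share on mm10. Cox5b, a subunit without a tissue isoform, led with a signal of 42.5 and rank 11632, a summit 13 bp from the TSS and replicate ranks of 12001 and 11573. Cox7c followed (signal 32.2, ranks 13730 and 27389 in the replicates). Cox6a1 (25.2), Cox7a1 (23.4) and Cox8a (23.2) were lower, at ranks 23845, 25594 and 25715 of 31497; replicate 1 had no interval over the Cox6a1 and Cox8a peaks and ranked Cox7a1 at 99418, while replicate 2 ranked them 21120, 13111 and 19156. The tissue-restricted isoforms are Cox4i2, Cox6a2, Cox6b2, Cox7a1, Cox7b2, Cox8b, Cox8c and Ndufa4l2, which are best known from muscle, lung, testis or hypoxic cells. Of these, 1 of 8 had a promoter peak (Cox7a1, 12.5%) and 3 had a peak within 10 kb (37.5%), against 28.4% and 42.6% of all genes. On mm9 the counts were 0 (which allows up to 37.5%) and 1 of 8, against 16.5% and 28.3%. With 8 genes, each of the 4 Wilson intervals holds the share of all genes. The broadly expressed Cox4i1, Cox6c, Cox7b and Cox7a2l had no peak within 10 kb on either list, so absence was not limited to the tissue-restricted isoforms. All of those isoforms but Ndufa4l2 count toward complex IV, and its share without them was not computed. Cox7a2 had an optimal summit within 1 kb of its RefSeq promoter start and an mm9 promoter peak of rank 6642. Distal peaks were seen at Cox6a1 (signal 42.6, 7729 bp), Cox5b (33.7, 7212 bp) and Cox6b1 (26.9, 3032 bp).

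Complex V gave 3 of the 6 highest promoter signals of the family. Its leaders included genes for the membrane-embedded c ring: Atp5g1 had a signal of 68.9 and rank 5119 at chr11:96075487-96075846, 27 bp downstream of the TSS, with replicate ranks of 3340 and 5219. Atp5g2, which encodes the same mature c subunit, had a signal of 66.9 and rank 5391, with replicate ranks of 10198 and 3746. Atp5g3, the remaining c-subunit gene, had no optimal peak within 1 kb of its outermost start, but had one by the RefSeq promoter starts and one on mm9 (rank 15067, 6 bp from a TSS). Atp5j, a coupling factor of the stalk, had 3 promoter peaks, of signal 67.5, 36.0 and 24.9. The strongest lay 844 bp inside the gene and 122 bp from the TSS of Gabpa, which encodes the DNA-binding subunit of GABP, and ranked 2877 and 8453 in the replicates. Atp5h, a subunit of the peripheral stalk, had a signal of 51.8 (replicate ranks 3616 and 14598), Atp5o, which encodes OSCP at the top of that stalk, 45.3 (9831 and 10500), and Atp5mpl, a small membrane subunit, 43.4 (9195 and 16842).

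The catalytic head of complex V depended on the peak set. Of the 5 genes for its subunits (Atp5a1, Atp5b, Atp5c1, Atp5d and Atp5e), Atp5a1 had an optimal promoter peak (signal 36.5, rank 14771), against 7 of the 12 other complex V genes. In the conservative set, which also holds Atp5b and Atp5c1, the counts were 3 of 5 and 7 of 12, so the lower share of the head was not found there. Atp5d had an optimal summit within 1 kb of its RefSeq promoter start and an mm9 summit of rank 7167 at 15 bp from a TSS. By distance from the outermost start, the strongest distal peaks were at Atp5h (signal 55.5, 6462 bp), Atp5d (45.9, 2819 bp) and Atp5g2 (39.6, 7038 bp). The only optimal peaks within 10 kb of Atp5d lay at 2819 and 3634 bp. The summit near its RefSeq promoter start is therefore among these and is not a further peak.

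Within 10 kb, 114 optimal peaks lay near the family, and 45 of them were more than 1 kb away. Of these 45, 26 were nearest to the TSS of another gene, and 2 (those near Ndufaf3 and Uqcr10) were in the top 10% of the list. The nearest-gene count was not made for all genes. A peak 1 to 10 kb away and none nearer was found at 11 members, among them Ndufa4l2, Ndufb9, Ndufs6, Ndufv3, Uqcr11, Cox4i2, Cox6b1, Atp5b, Atp5d and Atp5g3. Of all 21536 protein-coding genes, 9178 had a summit within 10 kb and 6108 within 1 kb, so this pattern was not particular to the family. These distances are from the outermost start, and Atp5d and Atp5g3 had an optimal summit within 1 kb of a RefSeq promoter start.

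The replicates ranked many of these promoters differently. Both relaxed lists hold background intervals as well as peaks, so an interval there is a weak mark of presence. Both relaxed replicate lists had an interval over 51 of the 56 strongest promoter peaks (91.1%, against 90.9% for all genes); replicate 1 lacked one at Ndufs8, Ndufs1, Cox6a1, Cox8a and Ndufaf7, and replicate 2 lacked none. Ranks ran from 2309 to 248220 in replicate 1 and from 3746 to 127547 in replicate 2. Across the 51 peaks the Spearman correlation of the ranks was 0.20, and across 5554 genes it was 0.45; both describe peaks that share 2 libraries and the promoter setting. Replicate 1 gave the better rank at 27 and replicate 2 at 24. Taking the strongest 31497 intervals of each replicate alone, 50 members had a promoter summit in replicate 1 (51.0%), 58 in replicate 2 (59.2%) and 39 in both (39.8%), against 29.9%, 28.9% and 22.1% of all genes. Of the members in either replicate 56.5% were in both, and of all genes 60.2%.

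**Figure D4:**
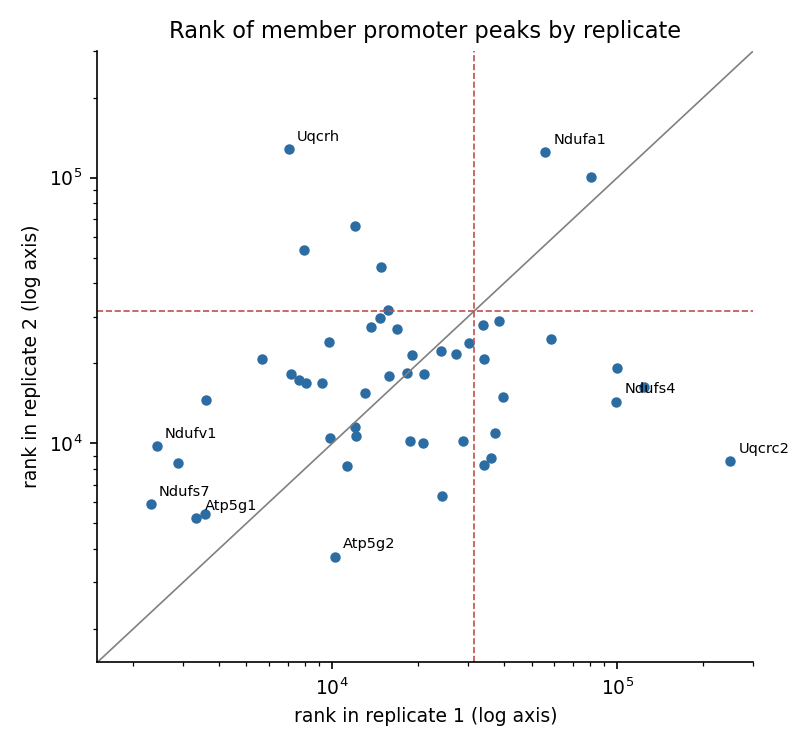
Rank of the interval over each member's strongest promoter peak in replicate 1 (x, log axis) and replicate 2 (y, log axis), for the 51 members with an interval in both; rank 1 is the strongest, the grey line marks equal ranks and dashed lines mark rank 31497. Ndufs7 and Atp5g1 stand high in both, and Uqcrc2 and Uqcrh lie far from the line on opposite sides.

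The lists also gave partly different members. In the optimal and conservative sets together, 42 members had a promoter peak in both, 14 in the optimal set only and 6 in the conservative set only (Atp5b, Atp5c1, Ndufb9, Ndufs5, Uqcr11 and Uqcrc1). Of the members with an optimal promoter peak 75% also had a conservative one, against 78.7% of all such genes. This difference between the sets was therefore not particular to the family. Of all conservative peaks 81.7% were also optimal peaks, so the conservative set is not contained in the other. Of the 95 members on both builds, 23 had a promoter peak on both, 33 on mm10 only, 7 on mm9 only (among them Ndufb9, Uqcrc1, Cox5a, Cox7a2, Atp5d and Atp5g3) and 32 on neither. Cox7a2, Atp5d and Atp5g3 did have an optimal mm10 summit within 1 kb of their RefSeq promoter starts, so their place among these 7 rests on the choice of the outermost start. Those on mm10 only were Ndufa1, Ndufa2, Ndufa3, Ndufa4, Ndufa6, Ndufa7, Ndufa9, Ndufab1, Ndufb5, Ndufb8, Ndufc1, Ndufs1, Ndufs4, Ndufs7, Ndufs8, Ndufv2, Ndufaf2, Ndufaf5, Ndufaf6, Ndufaf7, Sdhb, Sdhd, Cyc1, Uqcrb, Uqcrh, Cox6a1, Cox7a1, Cox7c, Cox8a, Atp5a1, Atp5g2, Atp5k and Cycs. The optimal signal had a median of 43.4 where mm9 also had the peak and 30.5 where it did not. Ndufs7, first on mm10, was among those absent from mm9. The split between builds was not computed for all genes.

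No peak within 10 kb in the optimal set or on mm9 was found at 24 members, of which Ndufs5, Atp5c1 and Atp5e had one in the conservative set: Ndufa8, Ndufa11, Ndufb2, Ndufb3, Ndufb4, Ndufb11, Ndufs5, Ndufaf4, Sdha, Sdhc, Cox4i1, Cox6a2, Cox6b2, Cox6c, Cox7a2l, Cox7b, Cox7b2, Cox8b, Cox8c, Atp5c1, Atp5e, Atp5l, Atp5md and Atp5pb. A missing peak means that no interval passed the set's threshold. Of the 42 members without an optimal promoter peak, 35 had an interval with its summit within 1 kb in the pooled relaxed list, at ranks from 10411 (Uqcrc1) to 289167 with a median of 43794, and 7 had none. Also outside the set lay Ndufs5 at pooled rank 17380, Ndufb1 at 19859, Ndufb9 at 21922 and Atp5b at 23081. Ndufa4 and Ndufa1 were inside the set although their promoter intervals were weaker, at pooled ranks 68553 and 76983. Pooled rank alone therefore did not decide which promoters were in the set.

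No mm9 promoter peak of the family held a MEF2 site. Of 32 such peaks, 0 had an exact match to the MEF2 consensus within 50 bp of the summit, which allows a share of up to 9.38% (3 counts); 3.18% of all mm9 peaks within 1 kb of a TSS and 7.13% of all mm9 peaks had one. Windows of 100 bp to each side and whole intervals also held none. In the RefSeq promoters (GRCm38.p6, 300 bases, of which 250 lie before the start), 0 of the 79 members found in that table had the match, which allows up to 3.797%, against 2.94% of 17492 genes. A missing match says only that these letters are not in the window.

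ETS matches (CCGGAAG) were found at 6 of the 32 peaks (18.8%, interval 8.89 to 35.3), against 12.5% of all promoter peaks and 3.68% of all mm9 peaks. SP/KLF matches (GGGCGG) were found at 9 (28.1%), against 26.6% of all promoter peaks. NF-Y (CCAAT) was found at 2 (6.25%), against 9.93% of all promoter peaks. NRF1, YY1, CRE (TGACGTCA), AP-1 (TGANTCA) and ERR (TCAAGGTCA) were found at 1 each (3.13%), against 1.99%, 2.13%, 2.68%, 3.49% and 0.083% of all promoter peaks. The octamer (ATGCAAAT) was found at none, which allows up to 9.38%, against 1.22%. The ERR match was at Atp5g3, the CRE match at Ndufa10 and both NF-Y peaks at complex V genes, Atp5g1 with 3 matches and Atp5h. Within 50 bp the interval of the family held the share of all promoter peaks for each motif except ERR, which rests on a single gene. In wider windows YY1 also lay outside it: 5 of 32 peaks (15.6%, interval 6.86 to 31.8) had a match within 100 bp, against 4.45% of all promoter peaks, and 6 (18.8%, interval 8.89 to 35.3) in the whole interval, against 6.59%. These are descriptions over 32 peaks and 10 motifs, with no test.

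**Figure D5:**
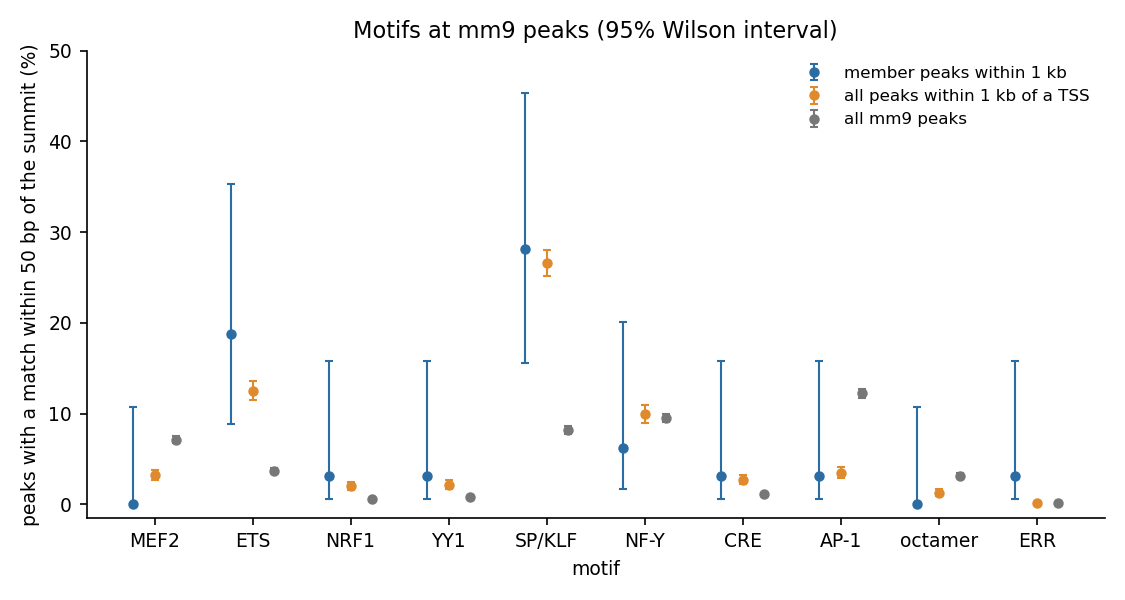
Share of mm9 peaks (%) with an exact match within 50 bp of the summit, for 10 motifs, in the 32 member promoter peaks (blue), all peaks within 1 kb of a TSS (orange) and all mm9 peaks (grey); bars are 95% Wilson intervals. MEF2 matches are at 0 in the member peaks, and the wide blue bars cover the orange points for ETS, at 18.8% against 12.5%, and for SP/KLF, at 28.1% against 26.6%.

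In the RefSeq promoters the family had more ETS, NRF1 and YY1 matches than promoters at large: 22.8% of the 79 members held ETS, 16.5% NRF1 and 12.7% YY1, against 11.9%, 3.61% and 3.21% of all genes. CRE (6.33%) and ERR (2.53%, 2 genes) were also above all genes, at 2.33% and 0.33%. For SP/KLF, NF-Y, AP-1 and the octamer the interval of the family held the share of all genes. Members with an optimal promoter peak held ETS in 27.7% and YY1 in 14.9%, and members without one in 15.6% and 9.38%. NRF1 went the other way, at 14.9% and 18.8%, as did NF-Y, at 36.2% and 56.3%. The intervals of each of these pairs overlap. Promoter GC content moves with peaks in all genes: 40.8% of genes with promoter GC above the median of 56.3% had a promoter peak and 16.7% of the others. Among members the shares were 29 of 46 (63.0%, interval 48.6 to 75.5) above the median and 18 of 33 (54.5%, interval 38.0 to 70.2) at or below it, so the family lay above all genes in both classes.

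Other abundant housekeeping families had higher shares still. Within 1 kb on mm10, proteasome subunit genes had a summit in 38 of 51 (74.5%, interval 61.1 to 84.5), mitochondrial ribosomal protein genes in 51 of 78 (65.4%, interval 54.3 to 74.99) and cytosolic ribosomal protein genes in 49 of 76 (64.5%, interval 53.3 to 74.3). On mm9 the shares were 52.0%, 51.9% and 48.7%, against 31.6% for the oxidative phosphorylation genes. The levels of these transcripts were not measured here, and the part of promoter activity in these shares was not tested.

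The rest of the mitochondrial energy pathway was compared by list on mm10. Of all protein-coding genes, 28.4% had a promoter peak and 42.6% one within 10 kb. Other assembly factors of the respiratory chain had an optimal promoter peak in 22 of 39 genes and one within 10 kb in 27, and were led by Cox15, a heme A synthesis enzyme (signal 169, 9605 bp away), Cox14 (80.6, 975 bp) and the copper chaperone Sco1 (67.9, 3903 bp). Of 13 citric acid cycle genes, 4 (30.8%) had a promoter peak and 6 (46.2%) one within 10 kb, near the shares of all genes. They were led by Fh1 (80.4, 6329 bp away), Dlst (67.4, 8892 bp) and Ogdh (59.9, 1230 bp), none of these within 1 kb. Of 11 regulators of nuclear-encoded mitochondrial genes, 4 (36.4%, interval 15.2 to 64.6) had a promoter peak and 7 (63.6%, interval 35.4 to 84.8) one within 10 kb. Both intervals hold the shares of all genes. The regulators were led by Gabpa (67.5, the peak shared with Atp5j), the coactivator gene Ppargc1a (63.3, 4409 bp) and Tfb2m (44.5, 5229 bp). Of 4 mitochondrial carrier genes only Slc25a4, the muscle and heart ADP/ATP carrier, had a peak (41.3). The labelled cell type was checked with markers. Of 8 B-cell markers, 5 (62.5%, interval 30.6 to 86.3) had an optimal promoter peak and all 8 had a peak within 10 kb. They were led by Cd22 (signal 220, 7437 bp away), Cd79b (214, 4318 bp) and Ms4a1 (147, 177 bp), all stronger than any peak of the oxidative phosphorylation genes. Of 10 markers of other cell types 0 had a promoter peak (which allows up to 30%) and 3 (30%) a peak within 10 kb, the highest at Csf1r (33.8). The interval of this 10 kb share, 10.8 to 60.3, holds the 42.6% of all genes.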

How the data were processed

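ChIP-seq of MEF2A in 2 biological replicates of CH12.LX (1 group) was read from 6 deposited narrowPeak lists (mm10, 5; mm9, 1). The authors called relaxed intervals on each replicate and on the pool with a control, and made the optimal and conservative IDR sets from these, per the file headers. The signal per peak and the score column are the authors' own deposited values; signals of different lists were never compared. Which aligner and caller were used is not given in the sources used here. No control is stated for the mm9 list, and control reads were not analysed here. A replicate's rank at a peak is that of its strongest interval over the summit.

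Summits were joined to protein-coding TSSs within 1 kb and 10 kb. On mm10 the TSS was the outermost end of each RefSeq gene (GRCm38.p6), with strand from RefSeq promoter entries (17492 genes) or else from GENCODE vM1 (4044 genes); 21536 of 21900 genes (98.3%) had one. On mm9 all protein-coding GENCODE vM1 transcript starts were used (22219 genes); 3 members (Ndufb1, Ndufb4b and Ndufb4c) have no gene there, and 7 matched by synonym. Shares carry 95% Wilson intervals over genes. A count of 0 among 4 or more is given with the share that 3 counts would make. Motifs were exact matches on either strand in NCBIM37 sequence. No test across genes was run and no p-value is given, since there is 1 group. Coordinates are 1-based. Joins used pandas 2.3.3 under Python 3.11.15 and intervals scipy 1.17.1; joins and motif searches were tested on simulated data.

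The members and lists were chosen with earlier results of these data known. Named genes are all of complexes II and III and cytochrome c; for the other complexes, the 6 strongest promoter peaks and the 3 strongest at 1 to 10 kb; all tissue-restricted isoforms; members that differ between builds or lack any peak (1 of them is not reported here); and, of each other list, the 3 strongest. Alternatives were the conservative set, stronger peaks only, each replicate alone, interval overlap, nearest gene, another TSS choice and fewer members.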

Additional observations from a re-analysis of the deposited data

How the results depend on the processing

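The counts of members depended on the strength asked of a peak. With the stronger 50% of each list, members with a summit fell to 30 within 1 kb and 40 within 10 kb on mm10 (14.2% and 25.4% of all genes), and to 9 and 14 on mm9 (9.47% and 14.7% of members, against 6.14% and 13.6% of all genes), so that on mm9 the family lay nearer the background. Leaving out a replicate, with the strongest 31497 intervals of the other, gave 50 to 58 members within 1 kb and 63 to 71 within 10 kb. Of all genes, replicate 1 alone gave 29.9% and 44.0% at these distances and replicate 2 alone 28.9% and 43.9%. The conservative set gave 48 and 59 (49.0% and 60.2% of members, against 25.8% and 39.7% of all genes). Starts from the RefSeq promoter table, an alternative chosen after seeing the data, gave 50 and 55 of 79 members. These are 63.3% and 69.6%, against 31.0% and 43.4% of all genes. The other alternatives stayed within 1.5 times the reported counts. ETS matches rose to 28.1% of the 32 peaks within 100 bp (20.9% of all promoter peaks), and in whole intervals YY1, SP/KLF and NF-Y rose to 18.8%, 56.3% and 21.9% (6.59%, 58.4% and 32.3% of all promoter peaks). Each replicate list stops at 300000 intervals and read depth is unknown, so a missing peak is one not called in that set and is not shown to be absent. No paired analysis was possible because there is 1 group and no comparison between groups.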
